A study of Homo sapiens with 9 samples.

Results

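The angiopoietins, the vascular endothelial growth factors (VEGFs), endothelin-1 and their receptors were followed in human lung fibroblasts. The cells were non-senescent, in RAS-induced senescence, or had RAS switched on while carrying a hairpin against ARID1B. The study reports that depletion of ARID1B blunted senescence in such cells. The set was chosen from earlier results of these same arrays, in which ANGPT2 was the largest rise and EDN1 one of the largest falls when the hairpin group was set against the senescent group, and it was then filled in by family. It lists 10 genes: the ligands ANGPT1, ANGPT2, VEGFA, VEGFB, VEGFC and EDN1 and the receptors TEK, TIE1, EDNRA and EDNRB. Of these, 9 had a probe set mapped to exactly 1 gene symbol (1 probe set each), out of 18417 genes measured in all. Expression of EDNRA, the endothelin receptor of smooth muscle, was not analysed here, and the gene enters only the counts of promoter motifs. Because the values of these genes entered the choice, they are described below with no p-value, and p-values are given only for other genes. Where one of the chosen genes is said to be called (to pass an adjusted p under 0.05 in the limma fit over all genes), that too is a description of the values that chose it and supports nothing further.

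Total RNA was measured on 9 whole-transcript gene arrays in 3 groups of 3. All cells were IMR90 ER:RAS (IRM90 in the labels), a fetal lung fibroblast line that carries an oncogenic RAS fused to the ligand-binding part of the oestrogen receptor, so that 4-hydroxytamoxifen (4OHT) switches RAS on. The groups were vector-4OHT (empty vector, no 4OHT, non-senescent), vector+4OHT (empty vector, 100 nM 4OHT, senescent) and shARID1B+4OHT (a short hairpin RNA against ARID1B, 100 nM 4OHT, knockdown). Cells were grown for 7 days and the labels give 6 days after 4OHT for every group. No group with a control hairpin, with shARID1B but no 4OHT, or with 4OHT but no ER:RAS is among the samples, and the hairpin sequence or sequences behind shARID1B are not named in the labels. A figure legend of the study calls the replicates of this experiment biological, while the labels do not tie the 3 arrays of a group to separate cultures. Errors and p-values reflect the spread among these arrays. Values are log2 expression as deposited, and 1 unit is a doubling. Array medians lay between 6.70 and 6.79, and 6.75, the median of all probe sets, serves below as a mark of dim signal.

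VEGFA drives the sprouting of blood vessels through the receptors FLT1 and KDR, and VEGFC acts mainly on lymphatic vessels through FLT4. ANGPT1 activates the receptor tyrosine kinase TEK (also called TIE2) and steadies vessels, whereas ANGPT2 is mostly an antagonist of the same receptor that loosens them, with TIE1 as a coreceptor. EDN1 is a potent constrictor peptide that acts on EDNRA and EDNRB and drives contraction and matrix production in fibroblasts. Senescent fibroblasts secrete many such factors as part of the senescence-associated secretory phenotype.

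ARID1B, which belongs to the SWI/SNF complex that remodels chromatin, was lower in the cells that carried its hairpin. Its values were 8.93, 8.85 and 8.94 without 4OHT, 8.63, 8.96 and 8.77 in senescent cells and 8.07, 7.96 and 8.13 in knockdown cells. The knockdown arrays did not overlap the others. The log2 difference from senescent cells was -0.73 (39.9% lower, adjusted p = 0.000179, limma), and that between senescent and non-senescent cells was -0.12 (adjusted p = 0.315).

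ANGPT2 had the largest difference of the 18417 genes between knockdown and senescent cells, and it climbed over the 3 groups. It measured 5.32, 5.72 and 5.63 in non-senescent cells, 7.13, 7.48 and 7.47 in senescent cells and 9.42, 9.46 and 9.31 in knockdown cells. The 3 groups did not overlap, and the step between any 2 of them was many times the spread within a group. Group means were 5.55 ± 0.21, 7.36 ± 0.20 and 9.40 ± 0.079 (SD, n = 3). The senescent mean was 1.81 ± 0.12 (SE) above the non-senescent one on the log2 scale, or 3.50-fold, and ranked 80 from the top. The knockdown mean was a further 2.04 ± 0.12 (SE) higher, or 4.10-fold, with a range of 1.92 to 2.10 as each array in turn was left out. From non-senescent to knockdown cells the difference was 3.84, or 14.35-fold, ranked 16. All non-senescent arrays lay below 6.75, where array signal flattens, so the folds from that group are uncertain. RNA was taken from whole cultures, in which a change in the number of expressing cells and in RNA per cell cannot be told apart.

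ANGPT1, the activating ligand of the same receptor, moved the other way. Its values were 8.46, 8.51 and 8.22 in non-senescent cells, 7.99, 8.04 and 8.04 in senescent cells and 7.79, 7.83 and 7.75 in knockdown cells. Here too the 3 groups stood in order without overlap, but the steps were small. Means were 8.40 ± 0.16, 8.03 ± 0.033 and 7.79 ± 0.040 (SD, n = 3), so that the senescent level was 22.7% lower than the non-senescent one (log2 difference -0.37 ± 0.072 SE) and the knockdown level 15.0% lower than the senescent one (-0.24 ± 0.072 SE). The knockdown step was not called, and was called in 6 of 16 alternatives. Over both steps ANGPT1 was 34.3% lower, at a log2 difference of -0.61, while ANGPT2 was higher. Probe sets of different genes differ in brightness, so these values do not tell which of the ligands was the more abundant.

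TEK, the receptor of both ligands, was lowest in senescent cells. It measured 7.96, 7.90 and 7.84 without 4OHT, 7.54, 7.71 and 7.56 with 4OHT, and 8.04, 8.02 and 8.08 with 4OHT and the hairpin. Senescent arrays all lay below the non-senescent ones, and knockdown arrays all lay above both other groups. The senescent level was 18.9% lower than the non-senescent level (log2 difference -0.30 ± 0.058 SE). Knockdown cells were 1.36-fold above senescent cells (0.45 ± 0.058 SE on the log2 scale) and 1.11-fold above non-senescent cells (0.15 ± 0.058 SE). The difference from non-senescent cells was not called, and stayed uncalled in 13 of 16 alternatives.

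TIE1, the orphan coreceptor, was dim and flat. Its arrays read 5.79, 5.79 and 5.76 without 4OHT, 6.00, 5.79 and 5.70 in senescent cells and 5.83, 5.79 and 5.60 in knockdown cells. All 9 lay below 6.75 and the groups overlapped in every comparison, with log2 differences from -0.09 to 0.05 (SE 0.082).

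VEGFA was strongly higher in senescent cells and slightly higher again in knockdown cells. Non-senescent arrays held 9.30, 9.20 and 9.25, senescent arrays 10.78, 10.85 and 10.79, and knockdown arrays 10.98, 11.09 and 11.05. No groups overlapped. Means were 9.25 ± 0.053, 10.81 ± 0.041 and 11.04 ± 0.052 (SD, n = 3). Senescent cells were 2.94-fold above non-senescent cells, a log2 difference of 1.56 ± 0.052 (SE). The step to knockdown cells was 0.23 ± 0.052 (SE), or 1.18-fold, and its call was lost when shARID1B+4OHT replicate 2 was left out.

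VEGFC, the lymphatic growth factor, shared the large senescent step with VEGFA but was slightly lower in knockdown cells. It read 10.44, 10.41 and 10.47 in non-senescent cells, 11.54, 11.59 and 11.58 in senescent cells, and 11.40 on each knockdown array. The knockdown arrays, with an SD of 0.0031, fell between the other groups, and all 3 groups were separate. The senescent level was 2.19-fold the non-senescent one, at a log2 difference of 1.13 ± 0.044 (SE), and the knockdown level was 11.3% below the senescent one (-0.17 ± 0.044 SE) and 1.95-fold above the non-senescent one. The call of the small knockdown step was lost in 7 of 16 alternatives, among them leaving out vector+4OHT replicate 2 or 3 or any of the knockdown arrays.

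VEGFB, a VEGF linked to fatty acid uptake and heart vessels, differed little. Its values were 9.63, 9.71 and 9.68 in non-senescent cells, 9.53, 9.71 and 9.53 in senescent cells and 9.43, 9.28 and 9.35 in knockdown cells. Senescent and non-senescent arrays overlapped (log2 difference -0.08 ± 0.063 SE), and the knockdown arrays lay below both. The knockdown difference from senescent cells was -0.24 ± 0.063 (SE), a call lost in 7 of 16 alternatives, among them leaving out replicate 2 of vector+4OHT or replicate 2 or 3 of shARID1B+4OHT, and the difference from non-senescent cells was -0.33. The 3 VEGF ligands thus showed different group orders, with knockdown cells highest for VEGFA, in between for VEGFC and lowest for VEGFB.

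EDN1 was the opposite of ANGPT2 in the knockdown comparison. It measured 9.22, 9.14 and 9.14 in non-senescent cells, 9.55, 9.66 and 9.41 in senescent cells and 8.22, 8.39 and 8.21 in knockdown cells. Senescent arrays were highest and knockdown arrays were lowest, below even the cells without 4OHT, with no overlap between any groups. Means were 9.17 ± 0.043, 9.54 ± 0.13 and 8.27 ± 0.10 (SD, n = 3). Senescence came with a level 1.30-fold higher, a log2 difference of 0.37 ± 0.074 (SE). The knockdown level was 58.5% below the senescent level (-1.27 ± 0.074 SE), ranked 6 from the lowest of all genes, and stayed between -1.33 and -1.21 as each array was left out. It was also 46.1% below the non-senescent level (-0.89 ± 0.074 SE).

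EDNRB, which on endothelium releases relaxing factors and clears endothelin, stood higher at each step, unlike its ligand. Values were 6.01, 5.96 and 5.99 in non-senescent cells, 6.60, 6.57 and 6.76 in senescent cells and 7.25, 7.51 and 7.49 in knockdown cells. The groups did not overlap, though the means of the first pair, 5.99 and 6.65, were below 6.75. The senescent level was 1.57-fold the non-senescent one (0.66 ± 0.076 SE on the log2 scale), and the knockdown level was 1.71-fold the senescent one (0.77 ± 0.076 SE) and 2.69-fold the non-senescent one (1.43 ± 0.076 SE).

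**Figure D1:**
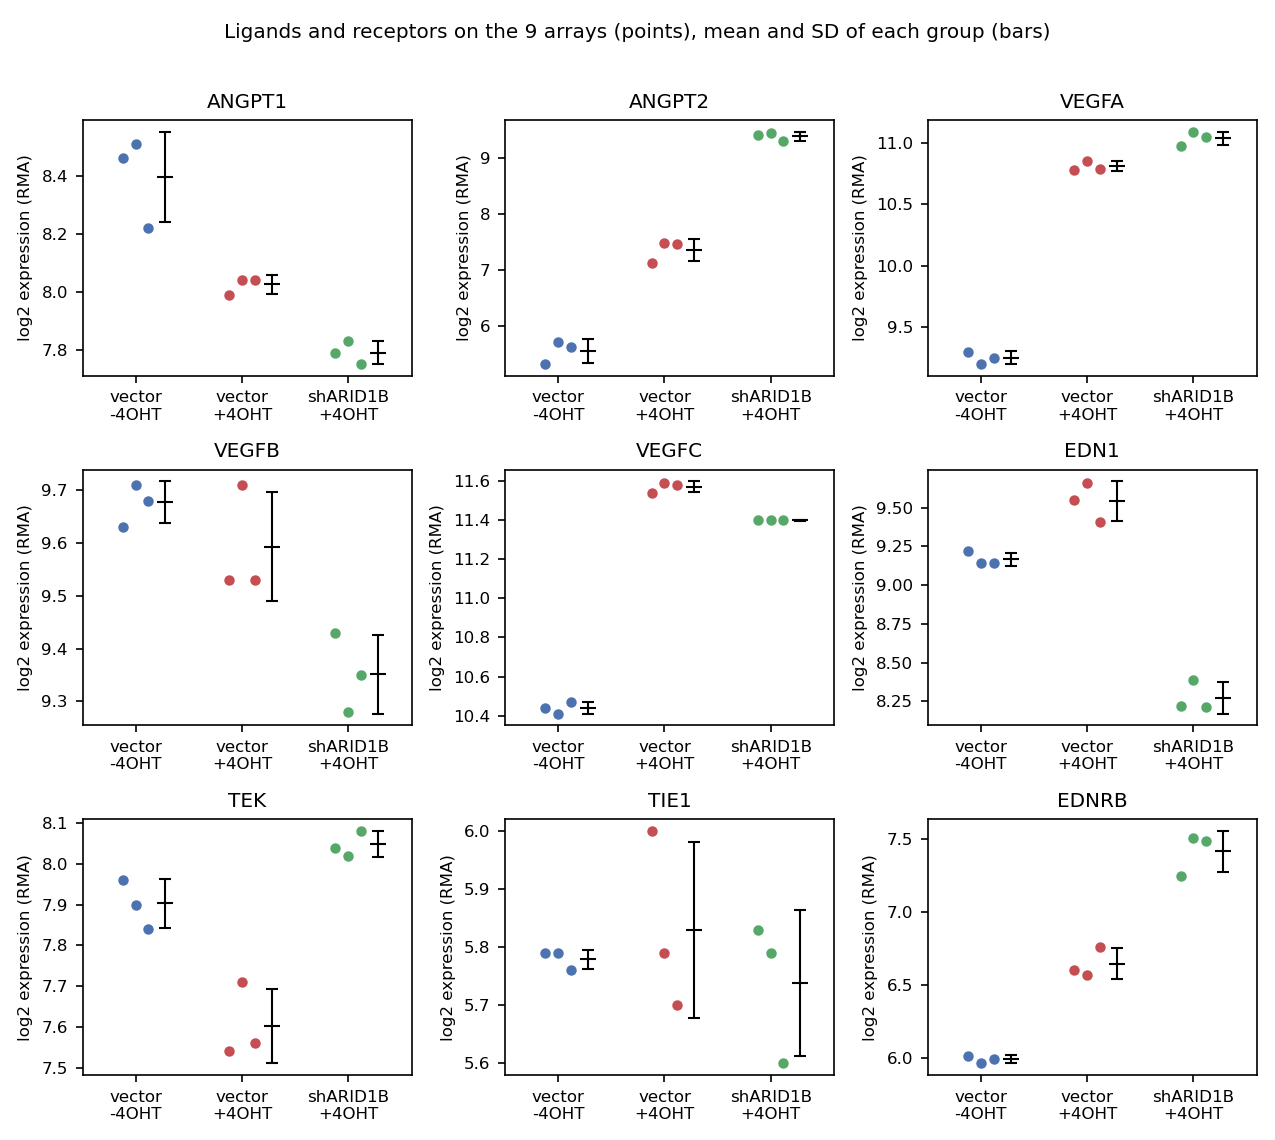
Log2 expression of the 9 measured genes on each array, 1 panel per gene with its own vertical axis, for vector-4OHT, vector+4OHT and shARID1B+4OHT; points are arrays and bars are the mean and SD of 3 arrays. ANGPT2 and EDNRB climb over the 3 groups, EDN1 is highest in senescent and lowest in knockdown cells, TEK is lowest in senescent cells, and TIE1 overlaps throughout.

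EDN1 and VEGFC were both higher in senescent cells and lower in knockdown than in senescent cells, but their patterns otherwise differed. From non-senescent to knockdown cells the log2 difference was -0.89 for EDN1 and 0.96 for VEGFC. The call of the VEGFC knockdown step held in 9 of 16 alternatives. The letters just upstream of EDN1 and of VEGFC are shown to set the genes side by side. They are the 250 bases before a RefSeq transcript start of assembly GRCh38.p14, read 5′ to 3′ along the gene. EDN1 has 3 such windows, and the one shown (chr6:12290111-12290360, plus strand, 49.2% GC) is the one with a TATA box, at 31 to 26 bases before the start. Its other capitals mark a GATA site on the opposite strand (136 to 131 bases before the start, the letters TTATCT) and the core of a hypoxia element on the opposite strand (123 to 119, CACGT). In VEGFC (chr4:176792923-176793172, minus strand, 74% GC) the capitals mark GC boxes, on the opposite strand at 213 to 208 bases before the start (CCGCCC) and on the gene's own strand at 189 to 184 (GGGCGG).
EDN1: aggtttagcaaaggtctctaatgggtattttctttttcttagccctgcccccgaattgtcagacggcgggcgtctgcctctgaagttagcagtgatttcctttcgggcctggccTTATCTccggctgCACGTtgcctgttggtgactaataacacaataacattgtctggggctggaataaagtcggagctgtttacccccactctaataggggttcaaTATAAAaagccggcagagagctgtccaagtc
VEGFC: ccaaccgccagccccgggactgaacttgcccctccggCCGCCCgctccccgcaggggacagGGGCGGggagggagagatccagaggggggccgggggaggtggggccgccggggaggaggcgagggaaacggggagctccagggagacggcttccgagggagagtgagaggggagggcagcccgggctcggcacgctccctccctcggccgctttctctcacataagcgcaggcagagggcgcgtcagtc

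Windows were found for 7 of the 10 genes (11 windows), and 6 motifs were searched on both strands. The AP-1 site (TGACTCA) was in 0 of the 11 and in 4.2% of all 35097 windows, and the cyclic AMP element (TGACGTCA) in 0 and in 1.65%. The hypoxia core (ACGTG) was in 4 of the 11 windows, of EDN1 and EDNRB, against 18.5% of all. The GATA site (AGATAA) was in 2, of EDN1 and TEK, against 9.17%, and the TATA box (TATAAA) in 1, of EDN1, against 10.7%. The GC box (GGGCGG) was in 5, of EDN1, EDNRA, EDNRB, VEGFB and VEGFC, against 42.6%. The EDN1 window with a GC box is not the one shown. Only exact letters were searched, so a near variant, such as the TGACTAA in the EDN1 window shown, was not counted as an AP-1 site. These are matches of letters, not sites shown to be bound.

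Over the 9 measured genes, 5 were called higher and 2 lower (adjusted p under 0.05, limma) in senescent than in non-senescent cells, where 14.9% of all genes were called higher and 17.6% lower. In knockdown against senescent cells, 4 were called higher (ANGPT2, TEK, VEGFA and EDNRB) and 3 lower (VEGFB, VEGFC and EDN1), where the shares of all genes were 9.63% and 6.09%. Without shARID1B+4OHT replicate 2 these 7 calls became 4, with 3 higher and 1 lower, and 1 was lower also with the replicate number as a block or with array medians subtracted. Against non-senescent cells, knockdown cells had 4 called higher and 3 lower, beside 15.6% and 15.9% of all genes. Arrays did not overlap for 7, 8 and 8 of the 9 in these comparisons, beside 40.1%, 32.5% and 45.9% of all genes. Nothing is read from these counts, since the genes were chosen on the same comparisons, which also share arrays. The median difference over the 9 was 0.37, -0.09 and 0.15 in the same order, beside -0.01, -0.02 and -0.03 over all genes. ANGPT2, VEGFA and EDNRB were called higher at both steps, ANGPT1 was called lower at the first only, EDN1 and VEGFC were higher at the first and lower at the second, and TEK was lower at the first and higher at the second.

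**Figure D2:**
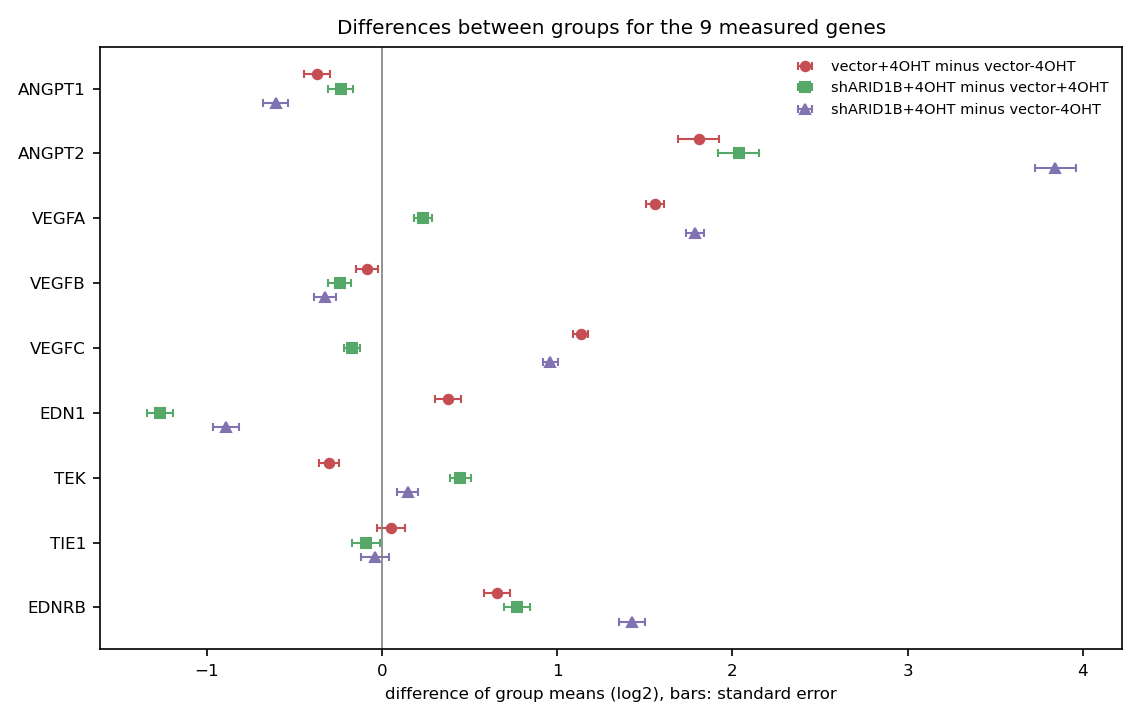
Difference of group means on the log2 scale (horizontal axis) for the 9 measured genes, with limma standard errors, for senescent minus non-senescent, knockdown minus senescent and knockdown minus non-senescent cells. ANGPT2 lies farthest to the right in each comparison, at 1.81, 2.04 and 3.84, and EDN1 farthest to the left in knockdown minus senescent, at -1.27.

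The genes whose group means lay nearest to those of ANGPT2 and of EDN1 were looked up in the whole table. Likeness was taken as the Euclidean distance between the 3 group means of 2 genes, each centred on its own mean over the groups, so that 0 is an identical pattern. The distance is not scaled, so genes with large differences between groups, for which ANGPT2 and EDN1 were chosen, have few near neighbours by construction. The nearest were FGF14 at 0.41, ID1, an inhibitor of DNA binding induced by BMP signals, at 0.43, TCIM at 0.72, the orphan nuclear receptor NR4A2 at 0.82 and the chemokine CXCL11 at 0.86. ID1 had means of 7.93, 9.42 and 11.16 in non-senescent, senescent and knockdown cells. The nearest to EDN1 were SEMA3C, a semaphorin that guides axons and vessels, at 0.16, the serpin SERPINB7 at 0.24, DOCK9 at 0.25, GPNMB at 0.26 and TBC1D2 at 0.28. SEMA3C had means of 9.91, 10.23 and 9.18. Within a distance of 0.25 there were 0 genes for ANGPT2 and 2 for EDN1, against 27 for VEGFA, 35 for EDNRB and 125 for VEGFC, and the flatter patterns of ANGPT1, TEK, VEGFB and TIE1 had from 1230 to 13352.

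**Figure D3:**
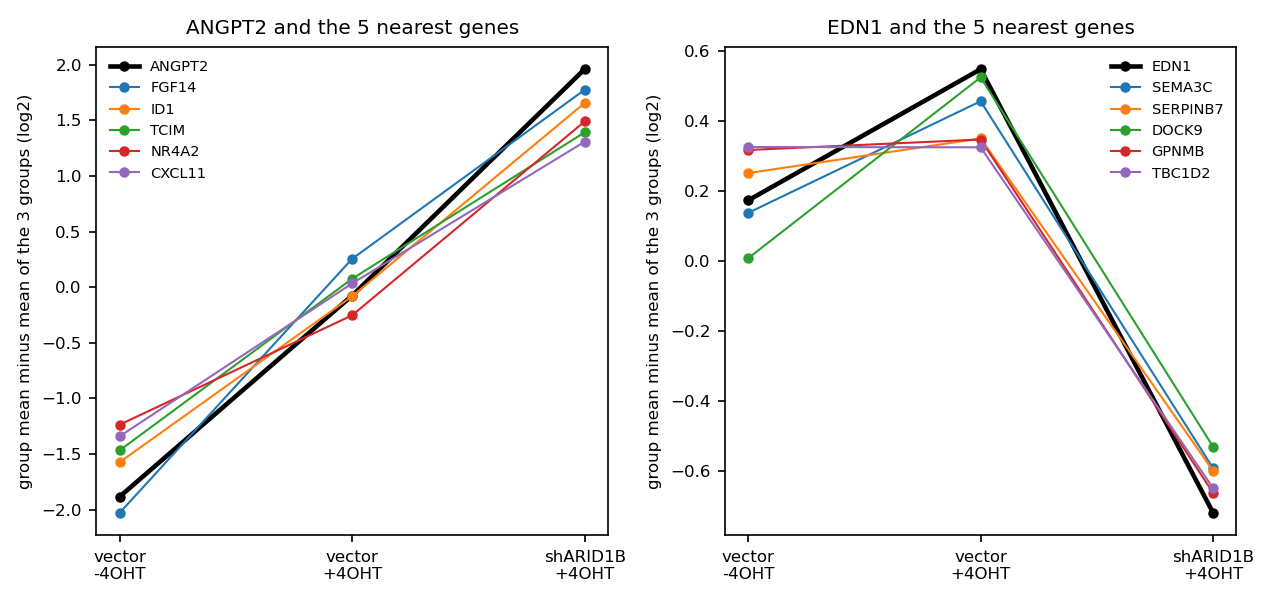
Group means minus the mean of the 3 groups (vertical axis, log2) in vector-4OHT, vector+4OHT and shARID1B+4OHT for ANGPT2 and EDN1 (black) and the 5 genes nearest to each (colours). FGF14 and ID1 lie nearest to ANGPT2, at distances of 0.41 and 0.43, and SEMA3C nearest to EDN1, at 0.16.

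Counts of called genes in the lists and marker sets below stand beside these shares of all genes. In senescence 14.9% were called higher and 17.6% lower, in knockdown against senescent cells 9.63% and 6.09%, and against non-senescent cells 15.6% and 15.9%. Of the other VEGF ligands and receptors, 6 of 7 were measured. In senescent cells 2 were called higher and 0 lower, in knockdown against senescent cells 0 higher and 1 lower, and in knockdown against non-senescent cells 1 higher and 0 lower. FLT1, a high-affinity VEGF receptor that also acts as a decoy, measured 7.72, 7.90 and 7.99 without 4OHT, 8.26, 8.37 and 8.38 in senescent cells and 8.08, 8.01 and 7.97 in knockdown cells. It rose by 0.47 in senescence (adjusted p = 0.000415, limma) and was 0.32 lower in knockdown cells, at a log2 difference of -0.32 (adjusted p = 0.012, or 0.0545 without shARID1B+4OHT replicate 3). NRP2, a coreceptor for VEGFC, rose by 0.48 in senescence (adjusted p = 0.000944), with a knockdown difference of -0.11 (adjusted p = 0.402). KDR, the main signalling receptor of VEGFA on endothelium, stayed at means of 4.89, 4.92 and 4.93, below 6.75, and PGF, FLT4 and NRP1 were not called in any comparison.

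In the wider angiopoietin and Tie list, 7 of 10 were measured and ANGPTL4 and SVEP1 were the called genes, 1 higher and 1 lower in senescence, both lower in knockdown than in senescent cells, and 1 higher and 1 lower in knockdown than in non-senescent cells. ANGPTL4, a secreted inhibitor of lipoprotein lipase, rose 8.01-fold in senescence. It read 7.53, 7.65 and 7.54 in non-senescent cells, 10.54, 10.61 and 10.57 in senescent cells and 9.80, 9.80 and 9.82 in knockdown cells. Its log2 differences were 3.00 (adjusted p = 2.51e-11) and, in knockdown against senescent cells, -0.77 (adjusted p = 6.27e-06). SVEP1, a matrix protein that binds the Tie system, fell at both steps, by 0.86 (adjusted p = 1.4e-05) and by 0.84 (adjusted p = 8.57e-05), from 9.54 to 8.68 and 7.84. PTPRB, the phosphatase that restrains TEK in endothelium, was at means of 4.69, 4.74 and 4.61 and was not called.

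All 6 of the other endothelin genes were measured. In senescent cells 3 were called higher and 0 lower, namely the endothelin-converting enzymes ECE1 (0.21, adjusted p = 0.00315) and ECE2 (0.24, adjusted p = 0.012) and MME. MME, or neprilysin, which degrades endothelin and other peptides, measured 11.49, 11.33 and 11.38 without 4OHT, from 11.97 to 12.02 in senescent cells and 11.44, 11.52 and 11.42 in knockdown cells. It rose by 0.60 in senescence (adjusted p = 1.05e-05) and was back at a difference of 0.06 from non-senescent cells under the hairpin (adjusted p = 0.458), having changed by -0.54 from senescent cells (adjusted p = 0.000118). In knockdown against senescent cells 0 were called higher and 2 lower, MME and EDN2, another endothelin peptide (-0.27, adjusted p = 0.0161). The EDN2 call was lost without shARID1B+4OHT replicate 2 or 3 (adjusted p = 0.0763 and 0.0654). ECE1, which makes active endothelin from its precursor, differed by -0.04 between knockdown and senescent cells (adjusted p = 0.556), and EDN3 and KEL were not called in any comparison. Against non-senescent cells, knockdown cells had 1 called higher, ECE1 (0.17, adjusted p = 0.0132), and 1 lower, EDN2 (-0.23, adjusted p = 0.0189, and 0.0515 to 0.0855 without vector-4OHT replicate 3 or without replicate 2 or 3 of shARID1B+4OHT).

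Among 19 of 20 other vessel-acting secreted factors and receptors that were measured, 5 rose and 6 fell in senescence, and 2 rose and 3 fell in knockdown against senescent cells. Against non-senescent cells, knockdown cells had 4 higher and 4 lower. ADM (adrenomedullin, a dilating peptide) fell at both steps, from 11.30 to 10.69 and 10.19, with adjusted p of 1.79e-06 and 4.96e-05. F3, the tissue factor that starts coagulation, rose by 0.58 in senescence (adjusted p = 4.8e-06) and changed by -0.70 with the hairpin (adjusted p = 9.66e-06). CALCRL, the receptor part that binds ADM, was also lower in knockdown cells and was named after its values were seen. Its means were 5.66, 6.30 and 5.58, all below 6.75, with a knockdown difference of -0.72 (adjusted p = 0.00316). The genes higher in knockdown than in senescent cells were SERPINF1, which encodes the anti-angiogenic factor PEDF (0.50, adjusted p = 0.000175), and the protease ADAMTS1, which binds VEGF (0.51, adjusted p = 0.000206). The Notch ligand DLL4 rose by 0.68 in senescence (adjusted p = 4.65e-06) and the vasohibin VASH1 by 0.43 (adjusted p = 0.000285), with knockdown steps of 0.17 and 0.19 that were not called (adjusted p = 0.0705 and 0.0707). ESM1, a proteoglycan of endothelial tip cells, rose by 0.83 in senescence (adjusted p = 4.21e-05) to a mean of 6.35, still dim.

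In the hypoxia response, 18 of 19 genes were measured. In senescence 8 rose and 2 fell, beside 14.9% and 17.6% of all genes. In knockdown against senescent cells 5 rose and 0 fell, beside 9.63% and 6.09%. Against non-senescent cells 9 were higher and 1 lower in knockdown cells, beside 15.6% and 15.9%. In senescence the call of BNIP3 held in 5 of 16 alternatives, that of VLDLR in 10 and that of KDM3A in 12. In knockdown against senescent cells the VLDLR call held in 11 of 16, and leaving out any shARID1B+4OHT array lost it. HIF1A, whose protein induces VEGFA when oxygen is low, rose by 0.47 in senescence (adjusted p = 7.48e-05), and its knockdown difference was 0.05 (adjusted p = 0.606). EPAS1, its paralogue, fell by 0.54 in senescence (adjusted p = 2.93e-05). PFKFB3, a driver of glycolysis, and P4HA1, a collagen prolyl hydroxylase, rose in senescence by 0.55 (adjusted p = 8.39e-06) and 0.38 (adjusted p = 0.00053). With the hairpin, VHL, whose product marks HIF for degradation, was 0.35 higher (adjusted p = 0.00255) and the mitophagy receptor BNIP3 0.24 higher (adjusted p = 0.00948). PDK1, which holds pyruvate back from mitochondria, fell by 0.37 in senescence (adjusted p = 0.00541) and was 0.44 higher in knockdown than in senescent cells (adjusted p = 0.00547). The histone demethylase KDM3A was 0.37 higher in knockdown cells (adjusted p = 0.0159), a call lost without vector+4OHT replicate 1 or 2 or shARID1B+4OHT replicate 2 or 3 (adjusted p = 0.0549, 0.0669, 0.0744 and 0.0629).

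Of 14 transcription factors known to act on genes of the set, 3 rose and 2 fell in senescence, and 3 rose and 1 fell in knockdown against senescent cells. In knockdown against non-senescent cells 3 were higher and 2 lower. ETS1, an activator of many vascular genes, measured 9.57, 9.38 and 9.48 without 4OHT, 9.93, 10.04 and 10.09 in senescent cells and 9.39, 9.40 and 9.43 in knockdown cells. It rose by 0.54 in senescence (adjusted p = 4.77e-05) and changed by -0.61 with the hairpin (adjusted p = 9.96e-05). KLF4, a factor that restrains growth and inflammation in vessels, had the opposite order, with means of 7.33, 6.84 and 7.50 and differences of -0.49 (adjusted p = 0.000135) and 0.66 (adjusted p = 8.57e-05). FOS, a part of AP-1, was higher at both steps, by 0.36 (adjusted p = 0.00227) and 0.33 (adjusted p = 0.00894), and its partner JUN rose in senescence by 0.27 (adjusted p = 0.00226). SMAD3, which carries TGF-beta signals, was 0.20 higher in knockdown than in senescent cells (adjusted p = 0.0248), and this call was lost with the replicate number as a block (adjusted p = 0.0545) and without vector+4OHT replicate 1 or 3 or any shARID1B+4OHT array (adjusted p from 0.0555 to 0.0946). The flow-responsive factor KLF2 was 0.22 lower in knockdown than in non-senescent cells (log2 difference -0.22, adjusted p = 0.00593). FOXC2, a factor of lymphatic vessels, fell by 0.25 in senescence (adjusted p = 0.00711). FOXO1, which induces ANGPT2 in endothelium, and GATA2, which acts on EDN1, were not called in any comparison.

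Over all 70 measured genes of the 6 lists (of 76), 22 were called higher and 11 lower in senescence (31.4% and 15.7%, beside 14.9% and 17.6% of all genes). In knockdown against senescent cells 10 were called higher and 9 lower (14.29% and 12.9%, beside 9.63% and 6.09%), and in knockdown against non-senescent cells 19 and 9 (27.1% and 12.9%, beside 15.6% and 15.9%). The median difference over the 70 was 0.03, -0.01 and 0.06 in the same order. By list, the median differences in senescence and in knockdown against senescent cells were 0.07 and -0.02 for the VEGF genes, 0.06 and -0.13 for the angiopoietin and Tie genes, and 0.13 and -0.07 for the endothelin genes. They were -0.03 and -0.02 for the other vessel-acting genes, 0.12 and 0.05 for the hypoxia response and -0.02 and 0.03 for the transcription factors, beside -0.01 and -0.02 over all genes. No list was tested as a whole.

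**Figure D4:**
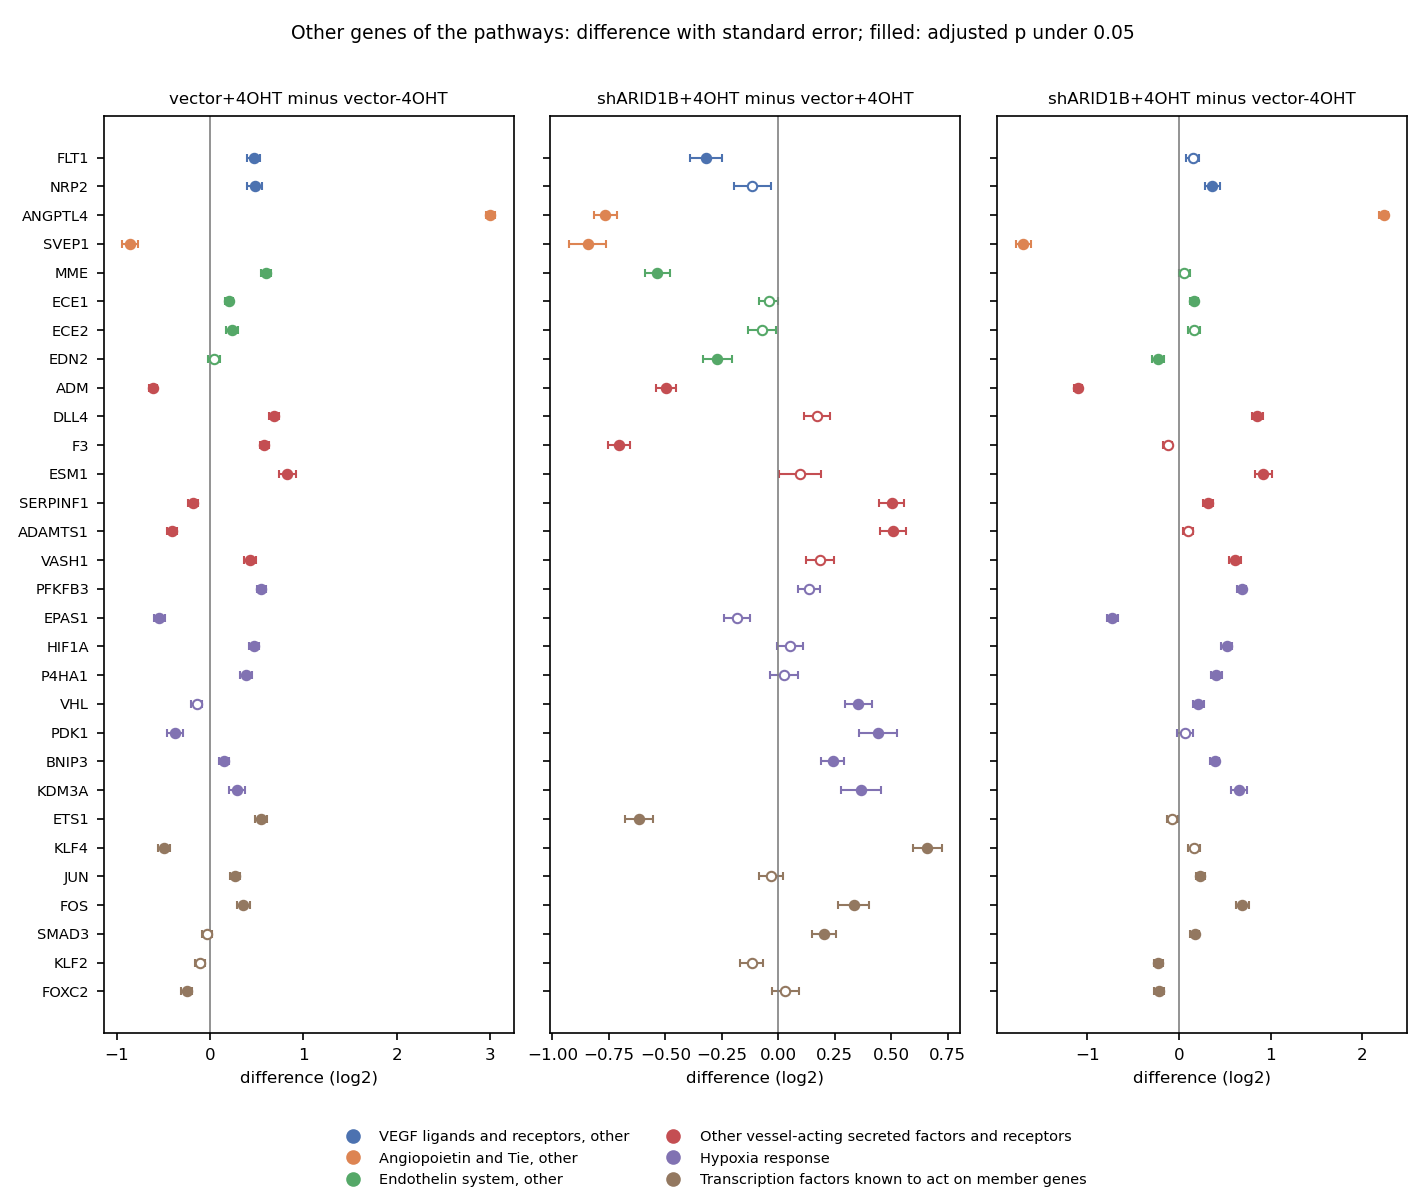
Log2 difference with its limma standard error (horizontal axis, scaled separately in each panel) for the 30 other pathway genes picked by p-value rank within their lists, in the 3 comparisons; filled points have an adjusted p under 0.05 and colours give the list. FLT1, MME, F3 and ETS1 lie to the right of 0 in senescence and to the left in knockdown minus senescent, and KLF4, PDK1 and ADAMTS1 lie the other way round.

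ANGPT2, TEK and TIE1 are best known from endothelium, and the fibroblast label was set against cell type markers. All 10 fibroblast markers had means of 9.85 or more in every group. In senescence 8 of the 10 were called lower and 0 higher, beside 17.6% and 14.9% of all genes. In knockdown against senescent cells 2 were called lower and 2 higher, beside 6.09% and 9.63%. In knockdown against non-senescent cells 6 were called lower and 0 higher, beside 15.9% and 15.6%. Of 12 endothelial markers, 8, including PECAM1, CDH5, VWF and ERG, were below 6.75 in all groups, and CLDN5, ROBO4, SOX17 and SOX18 were above it. The summed level of the 12 on the log2 scale was 10.36 to 10.47 in non-senescent, 10.47 to 10.68 in senescent and 10.36 to 10.41 in knockdown cells. In senescence 2 were called higher, PECAM1 by 0.58 (adjusted p = 0.000254) and ROBO4 by 0.93 (adjusted p = 4.8e-06). With the hairpin the same 2 were called lower, ROBO4 at -0.67 (adjusted p = 0.000255) and PECAM1 at -0.28 (adjusted p = 0.0468, and up to 0.153 without vector+4OHT replicate 2). This PECAM1 call was also lost with its probe sets averaged (adjusted p = 0.131, limma) and with array medians subtracted (adjusted p = 0.0905).

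Of 8 pericyte and smooth muscle markers, 7 were above 6.75, with a summed log2 level of 13.43 to 13.49 in non-senescent, 13.03 to 13.10 in senescent and 13.02 to 13.06 in knockdown cells. In senescence 2 were called higher and 3 lower, in knockdown against senescent cells 2 higher and 1 lower, and in knockdown against non-senescent cells 2 higher and 4 lower. RGS5 was higher at both steps, by 2.02 (adjusted p = 1.02e-08) and 0.52 (adjusted p = 0.00102), and NOTCH3 by 0.47 (adjusted p = 0.00032) and 0.27 (adjusted p = 0.0224, and 0.0699 and 0.0996 without replicate 1 of vector+4OHT or replicate 2 of shARID1B+4OHT). The contractile genes went the other way in senescence, with CNN1 at -0.97 (adjusted p = 7.23e-07) and ACTA2 at -0.46 (adjusted p = 2.47e-05), as did CSPG4 at -0.47 (adjusted p = 0.00248). With the hairpin ACTA2 differed by a further -0.16 (adjusted p = 0.0422), a call lost on leaving out any array but vector+4OHT replicate 1 and shARID1B+4OHT replicate 1 (adjusted p from 0.052 to 0.158). MCAM was lower in knockdown than in non-senescent cells alone (-0.27, adjusted p = 0.0136, and 0.0716 with array medians subtracted). The part of these genes in the values of ANGPT2 was not tested.

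All 6 measured leukocyte markers lay below 6.75 in every group, with log2 differences from -0.16 to 0.12 over the 3 comparisons. Of the 7 measured epithelial markers 4 were below 6.75 in non-senescent and senescent cells and 3 in knockdown cells. KRT8, KRT18 and KRT19 were above it in every group, and CLDN4 in knockdown cells. KRT18 had means of 9.60, 9.65 and 9.44 in non-senescent, senescent and knockdown cells and was not called in any comparison. KRT19 differed by -1.10 in senescence (adjusted p = 1.22e-05) and by 0.86 with the hairpin (adjusted p = 0.000321). CLDN4 was 0.38 higher with the hairpin (adjusted p = 0.00128), and KRT8 differed by -0.25 in senescence (adjusted p = 0.048), a call lost on leaving out any array but vector-4OHT replicate 1 (adjusted p from 0.0665 to 0.164).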

How the data were processed

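Human Gene ST arrays of 9 samples were used. The authors deposited log2 expression values per probe set, and their processing notes name RMA, which corrects background, normalises arrays by quantiles and summarises probes, with oligo and limma (versions and genome build not given in the sources used here). Quantile normalisation hides a shift shared by all genes. The extraction text of the labels names a stranded sequencing kit, whereas labelling text and probe sets are those of arrays.

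Of 33297 probe sets, 19460 carried 1 gene symbol, 1754 several and 12083 none. Where 769 genes had several, the brightest over the 9 arrays was kept, leaving 18417 genes. Columns of other samples numbered 0. The number of arrays limits precision.

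All 9 arrays were fitted by group with limma 3.58.1 (lmFit, eBayes; R 4.3.3), 2-sided, with Benjamini-Hochberg adjustment over all genes within a comparison and calls at an adjusted p under 0.05. Residual degrees of freedom were 6 (10.45 after moderation), and the script was tested on simulated data. Promoter sequences are RefSeq's. The member genes and the lists were chosen with earlier results of these data known. Named by rule were all members, ARID1B and the called genes of lowest p in each list and comparison (4 at most). The rule also took the 5 genes nearest to ANGPT2 and to EDN1, and called markers of cell types other than fibroblasts. Outside the rule, CALCRL and some uncalled genes of the lists were named, among them KDR, PTPRB, FOXO1 and GATA2. Some uncalled markers, such as CDH5 and KRT18, were named too. Listed genes without a probe set of their own (among them VEGFD, ANGPTL1, ANGPTL2, ANG, CA9 and ESRP1) were not analysed here. Alternatives were a replicate block, leaving out each array, only the 6 arrays compared, leaving out dim genes, averaging all probe sets of a gene, array medians subtracted and the methods' two-tailed t-test. Deviations from the group means correlated at -0.26 to 0.32 for the same replicate number and at -0.33 to 0.34 for different numbers. Same-number values were 0.32, 0.08 and 0.07 between vector+4OHT and shARID1B+4OHT. Between vector-4OHT and either of these groups they were all negative, from -0.26 to -0.01. Deviations cancel out within so small a group, which ties the correlations to each other. They therefore cannot decide whether replicate numbers pair the samples.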

Additional observations from a re-analysis of the deposited data

How the results depend on the processing

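Of 324 differences of member genes under the alternatives, 320 moved by less than the residual SD, 0 called differences changed sign and 4 moved by more. The 320 are no measure of stability, since most were fixed in advance. A replicate block or averaging of probe sets could not move these differences. Leaving out 1 of 3 arrays cannot move a difference by more than that SD. Only subtracting array medians could. The uncalled differences of TIE1 changed sign, to -0.03 in senescence without vector+4OHT replicate 1, and in knockdown against non-senescent cells to 0.02 after subtraction of array medians and 0.03 without shARID1B+4OHT replicate 3. The 4 larger moves came from subtracting array medians, with VEGFA at 1.85 from non-senescent to knockdown cells, and VEGFC at 1.17 in senescence, -0.15 in knockdown against senescent and 1.02 in knockdown against non-senescent cells. ANGPT2, EDN1, EDNRB and TIE1 kept their side of the threshold in every alternative that could be run, and TEK in those of senescence and of knockdown against senescent cells.

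Genes called in senescence numbered 5996, and 3738 by the methods' t-test after Benjamini-Hochberg adjustment. In knockdown against senescent cells they numbered 2895, and 1446 by that t-test and 1801 without shARID1B+4OHT replicate 2, which also took called members from 7 to 4. Called pathway genes went from 33 to 20 in senescence and from 19 to 12 in knockdown against senescent cells by the adjusted t-test. Leaving out each array gave 5288 to 5969, 1801 to 2817 and 4639 to 6293 called genes in senescence, knockdown against senescent and knockdown against non-senescent cells, 7 to 7, 4 to 8 and 7 to 7 called members, and 29 to 32, 14 to 20 and 21 to 34 called pathway genes. With the replicate number as a block, 5658, 2498 and 5437 genes, 7, 5 and 7 members and 32, 18 and 27 pathway genes were called. Why the counts moved was not tested. Levels below 6.75 are the least certain.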
